A study of Mus musculus with 6 samples.

Results

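The ATP-dependent chromatin remodellers are the enzymes that slide, evict or exchange nucleosomes, and most work in large complexes with many other subunits. The set described here holds 51 genes: the CHD family, the ATPases and subunits of the BAF and PBAF complexes, the ISWI group, the ATPases of the INO80, SRCAP and p400 complexes with their shared RUVBL subunits, the NuRD subunits, and ATRX and HELLS. The genes were taken from a list of names and matched to the symbols in the array's annotation. That list was chosen with earlier results of these data known. All 51 were found, with 59 probes, among 17422 genes and 20997 probes that could be tested. Every one of the 59 probes lay above the limit set by the blank spots on all 6 arrays. The filter on dim signals therefore removed no member.

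Oligodendrocyte precursor cells (OPCs), the glial progenitors that produce the myelinating cells of the brain, had been derived from forebrains of Jcl:ICR mouse embryos at E15.5 and were kept in FGF2 and PDGF-AA. One group carried a retrovirus that knocks down Chd7 (Chd7 KD, 3 arrays) and the other a control retrovirus (Control, 3 arrays), and both were collected on day 3 after infection. Growth medium, mouse stock, stage and exposure to a retrovirus were thus common to both groups. The knockdown sequence, the promoter that drives it, the share of infected cells and whether the 3 samples of a group came from separate cultures are not given in the sources used here, so the p-values below cover the spread among these samples alone, and that spread may be technical.

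CHD7 is a CHD-family ATPase found at active enhancers, and mutations of the human gene cause CHARGE syndrome. In the oligodendrocyte lineage, CHD7 works with the factor SOX10, and the BAF ATPase SMARCA4 (BRG1) is needed for these cells to differentiate. Complexes of the BAF type are built from families of interchangeable subunits, and neural cells swap some members of those families as they mature. NuRD joins a CHD-type ATPase to histone deacetylases, and ISWI enzymes space nucleosomes evenly.

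The median raw signal was 83.45 to 89.39 on the Chd7 KD arrays and 83.37 to 85.71 on the Control arrays, against 58.86 to 61.86 on blank spots over all 6 arrays. Values below are log2 intensities after normalization, on which blank spots lie at 5.70 to 5.71. They serve to compare 1 probe between groups and not 1 gene with another. In bulk RNA, fewer cells of a type and less RNA per cell cannot be told apart. Of the precursor markers 4 of 5 tested were lower in Chd7 KD, with a summed level of 13.17 to 13.36 in Chd7 KD and 13.54 to 13.78 in Control. All 5 lay above the blank limit on all arrays, and in the fit that pairs arrays by their number all 5 were lower, Olig1 being added (limma adjusted p = 0.0385). Of the proliferation genes 3 of 5 were lower, with summed levels of 13.51 to 13.73 in Chd7 KD and 13.76 to 13.85 in Control. Only Top2a passed in each of the 6 fits without 1 array, while Mki67 and Cdk1 passed in none of them (limma adjusted p 0.0501 to 0.124 and 0.0502 to 0.104). None of the 4 markers of differentiating oligodendrocytes passed, and their summed levels overlapped (10.03 to 10.46 in Chd7 KD, 10.11 to 10.52 in Control). In the paired fit 1 of the 4, Mog, was higher in Chd7 KD (log2 fold change 0.24, limma adjusted p = 0.0119, against 0.137 unpaired). None of the 5 astrocyte markers passed either, with summed levels of 13.40 to 13.41 in Chd7 KD and 13.43 to 13.56 in Control, nor did any of the 4 microglial or 3 vascular markers. The part of precursor and proliferation levels in the results below was not tested.

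With all 6 arrays, more remodeller genes fell than rose. Between Chd7 KD and Control, 3 members rose (Smarcd2, Mbd2 and Chd3), 11 fell and 37 did not pass an adjusted p of 0.05 in limma with Benjamini-Hochberg adjustment over all genes. These 14 are 27.5% of the set, against 9.6% of all 17422 genes. Chd7, the targeted gene, is among those that fell. Without it, 3 of 50 members rose and 10 fell (26%). By direction, 784 genes (4.5%) rose and 889 (5.1%) fell over the whole array. The groups did not overlap for 5 members above and 22 below, which is 52.9% of the set against 29.8% of all genes (14.6% above and 15.2% below). The log2 fold change of Chd7 KD over Control was negative for 35 of 51 members, and its median was -0.046, against 0.0013 over all genes. Fits with fewer arrays gave fewer calls, among members and over all genes, and the balance among members changed. Without Chd7 KD replicate 1, 2 members rose and 2 fell, where 357 genes rose and 396 fell over the whole array. Over all 6 fits without 1 array, 1 to 3 members rose and 2 to 7 fell. Without both arrays numbered 2, 1 member rose and 1 fell, where 105 genes rose and 140 fell over the whole array.

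Most of these changes were small. Past 1.5-fold were 2 members, Chd7 and Smarcd2, which is 3.92% of the set against 1.06% of all genes. Without Chd7, the targeted gene, it was 1 of 50 (2%). The set also gave brighter spots than the average gene, with a median mean log2 intensity of 7.73 against 6.55. At a mean of at least 7, a limit chosen after the values were seen, 13 of 34 members passed, where 15.4% of all genes did. Below 7, 1 of 17 members passed, where 5.74% of all genes did. By complex, 1 of the 10 CHD genes rose and 1 fell. Of the 22 BAF and PBAF genes 1 rose and 6 fell, of the 3 ISWI genes 2 fell, and of the 9 NuRD subunits 1 rose and 1 fell. Atrx fell, and no member of the 5 genes around INO80, SRCAP and p400 passed.

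**Figure D1:**
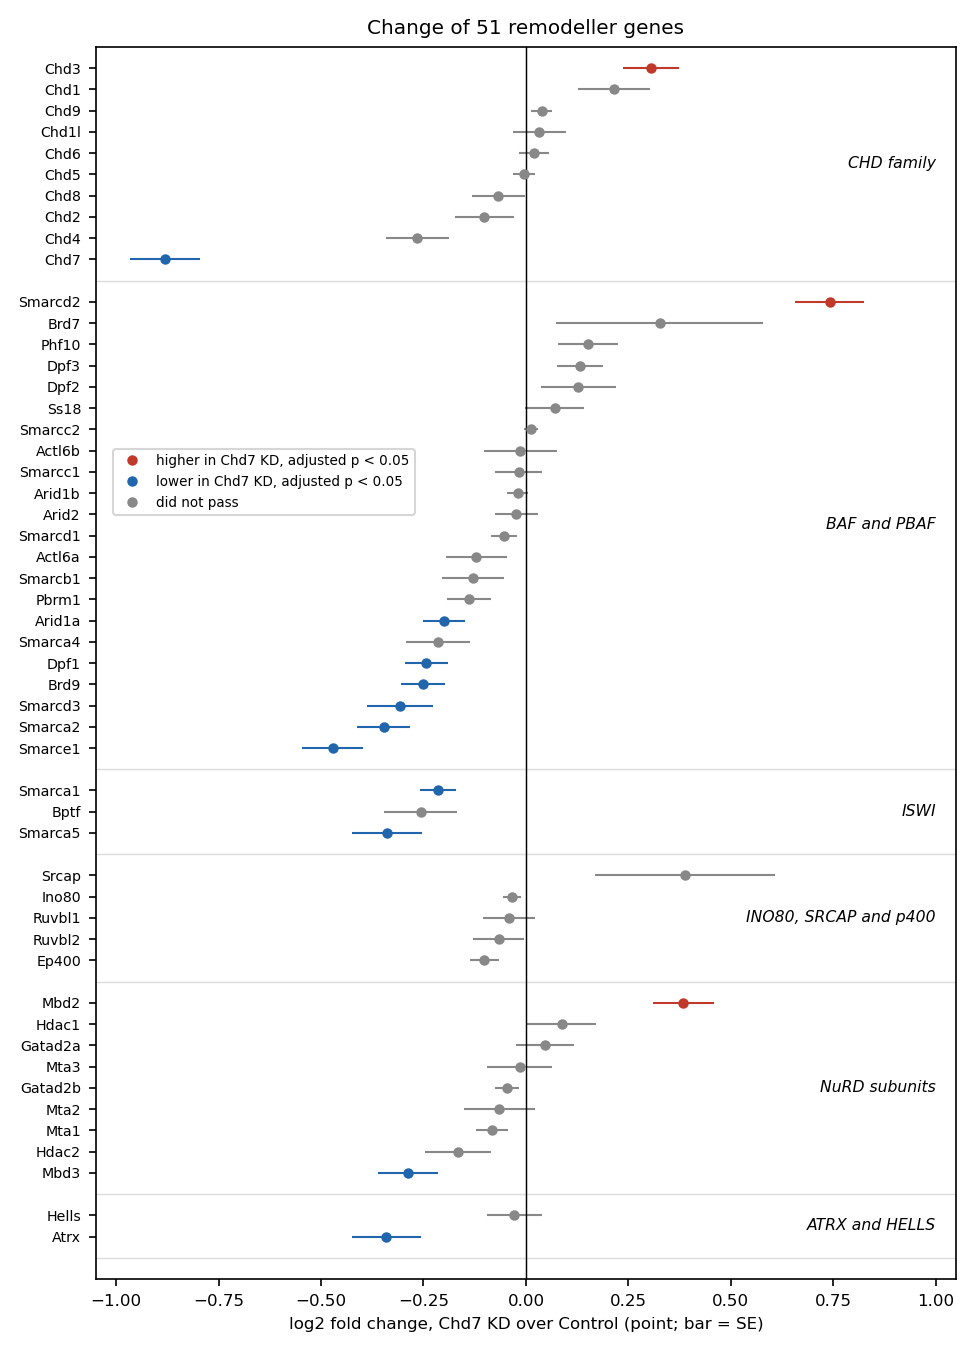
Each point is the log2 fold change of Chd7 KD over Control for 1 of the 51 genes (horizontal axis), with its standard error from limma as a bar, grouped by complex down the page. The 3 genes that rose are red, the 11 that fell are blue and the 37 that did not pass are grey. Chd7 at -0.88 and Smarcd2 at 0.74 stand farthest from 0.

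The targeted gene was lower in Chd7 KD with both of its probes. Chd7 read 8.55, 8.44 and 8.48 in the 3 Chd7 KD arrays, against 9.44, 9.20 and 9.47 in the 3 Control arrays. Every Chd7 KD array lay below every Control array. The log2 fold change was -0.88 (SE 0.0856, limma adjusted p = 0.00109), which is 54.3% of the Control level on this scale. A second probe for Chd7 read 7.20, 7.24 and 7.15 in Chd7 KD against 7.81, 7.61 and 7.62 in Control, again without overlap. Its change was -0.48 (limma adjusted p over all probes = 0.00404, a fit in which 8.83% of all probes passed). Chd7 passed whichever of the 6 arrays was left out, with adjusted p values of 0.00169 to 0.00650.

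Of the other 9 CHD genes 1 rose and 8 did not pass. The closest relatives of Chd7 are Chd6, Chd8 and Chd9, and none of them passed: their log2 fold changes were 0.020, -0.067 and 0.039, with limma adjusted p values of 0.788, 0.582 and 0.398. Chd8 averaged 8.13 ± 0.077 in Chd7 KD and 8.19 ± 0.048 in Control (SD, n = 3 each). Chd2, which acts at transcribed genes, changed by -0.10, and Chd1l, a remodeller recruited by poly(ADP-ribose), by 0.033. Chd5, a neuronal NuRD ATPase, stayed close to the blank level, at 6.04 in Chd7 KD and 6.05 in Control. A weak signal of this kind leaves little room to see a decrease.

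Chd3, an alternative ATPase of NuRD, rose in Chd7 KD. It read 8.27, 8.22 and 8.42 in Chd7 KD, against 7.996, 8.02 and 7.98 in Control. The 3 Chd7 KD arrays lay above all Control arrays, with a log2 fold change of 0.30 (SE 0.0691, limma adjusted p = 0.0265). The second Chd3 probe moved by 0.16 and missed the threshold (limma adjusted p over all probes = 0.0854). Chd3 no longer passed without Chd7 KD replicate 1, Chd7 KD replicate 3, Control replicate 2 or Control replicate 3 (adjusted p 0.0441 to 0.0820 over the 6 such fits). With all 6 arrays the call was also lost with median scaling (0.0829), the authors' values (0.0568) and the gain group of the scanner as a block (0.0621).

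Chd4, the main ATPase of NuRD, moved the opposite way to Chd3 but did not pass. It read 9.62, 9.59 and 9.60 in Chd7 KD, against 9.82, 9.79 and 10.00 in Control, so that the groups did not overlap. Its log2 fold change was -0.27 (SE 0.0768, limma adjusted p = 0.0625). Without a variance trend, its limma adjusted p was 0.0415. With the replicate number as a block, which pairs the arrays of 1 number, its adjusted p was 0.0420. That fit called 3 members higher and 12 lower, where 7.32% of all genes were higher and as many lower. Chd1, a remodeller of transcribed genes, read 6.84, 6.82 and 6.86 in Chd7 KD, against 6.45, 6.58 and 6.85 in Control. Control replicate 3 lay within the Chd7 KD range, and the change of 0.21 did not pass (limma adjusted p = 0.173). Without Control replicate 3 it was 0.33 with an adjusted p of 0.0160, and the range over the alternatives for Chd1 was 0.0160 to 0.999.

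Of the 2 catalytic subunits of BAF complexes, Smarca2 (BRM) fell and Smarca4 (BRG1) did not pass. Smarca2 read 7.39, 7.49 and 7.40 in Chd7 KD, against 7.67, 7.79 and 7.86 in Control. The groups did not overlap, and the log2 fold change was -0.35 (SE 0.0648, limma adjusted p = 0.0124). Of the 6 fits without 1 array, Smarca2 missed the threshold in the one without Chd7 KD replicate 1 (0.0539), and it also missed it without both arrays numbered 2 (0.1065) or 3 (0.1088). Smarca4 read 9.77, 9.60 and 9.78 in Chd7 KD, against 10.00, 9.90 and 9.90 in Control. These values did not overlap either, but the change of -0.22 did not pass (limma adjusted p = 0.127).

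Among the core subunits Smarce1 fell, while the other 3 did not pass. Smarce1 (BAF57), an HMG-box subunit found in both BAF and PBAF, read 8.58, 8.60 and 8.71 in Chd7 KD, against 9.19, 9.01 and 9.11 in Control. All Chd7 KD arrays lay below the Control arrays, at 72.1% of the Control level, with a log2 fold change of -0.47 (SE 0.0737, limma adjusted p = 0.00578). It passed in each of the 6 fits without 1 array, the highest adjusted p being 0.0298, but not without both arrays numbered 2 (0.0671). Smarcb1 (SNF5) changed by -0.13, and the scaffold subunits Smarcc1 and Smarcc2 (BAF155 and BAF170) by -0.018 and 0.012. Smarcc2 lay near the blank level, at 5.87 in Chd7 KD and 5.86 in Control.

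The 3 alternative SMARCD (BAF60) subunits, which link BAF complexes to transcription factors, include 1 that rose, 1 that fell and 1 that did not pass. Smarcd2 read 8.35, 8.03 and 8.10 in Chd7 KD, against 7.39, 7.39 and 7.48 in Control. The lowest Chd7 KD array stood well above the highest Control array, and the log2 fold change of 0.74 (SE 0.0850, limma adjusted p = 0.00185) is 1.67 times the Control level. It was the highest positive change of the 51 genes, and it passed in each of the 6 fits without 1 array (adjusted p 0.00498 to 0.0106). Smarcd3 read 8.93, 8.94 and 9.07 in Chd7 KD, against 9.42, 9.22 and 9.23 in Control. It fell without overlap by 0.31 on the log2 scale (SE 0.0807, limma adjusted p = 0.0463), and this call was lost without any 1 of the 6 arrays (adjusted p 0.0646 to 0.145). Smarcd1 read 6.29, 6.28 and 6.30 in Chd7 KD, against 6.32, 6.38 and 6.33 in Control. Its arrays also did not overlap, but the difference of -0.054 did not pass (limma adjusted p = 0.348).

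The sequences before the start sites of these 3 genes are shown because 1 of these paralogues, which code for like proteins, rose and another fell. Each is the 250 bases upstream of the start that RefSeq lists for the gene on build GRCm38.p6, written 5′ to 3′ on the gene's own strand. Capitals mark the GC box GGGCGG, the core of the site of SP/KLF factors, searched on both strands. Smarcd2 lies on the minus strand at chr11:106267633-106267882, Smarcd3 on the minus strand at chr5:24602003-24602252 and Smarcd1 on the plus strand at chr15:99702037-99702286.
Smarcd2: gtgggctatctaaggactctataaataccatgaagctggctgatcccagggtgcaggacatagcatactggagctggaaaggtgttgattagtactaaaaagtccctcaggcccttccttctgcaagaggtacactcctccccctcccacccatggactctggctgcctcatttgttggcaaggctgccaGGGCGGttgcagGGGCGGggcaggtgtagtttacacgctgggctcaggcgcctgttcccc
Smarcd3: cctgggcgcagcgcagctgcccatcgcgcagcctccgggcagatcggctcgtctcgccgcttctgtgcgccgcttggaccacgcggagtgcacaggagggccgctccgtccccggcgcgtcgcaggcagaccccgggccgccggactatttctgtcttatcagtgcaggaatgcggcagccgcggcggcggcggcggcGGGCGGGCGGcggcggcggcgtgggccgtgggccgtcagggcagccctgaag
Smarcd1: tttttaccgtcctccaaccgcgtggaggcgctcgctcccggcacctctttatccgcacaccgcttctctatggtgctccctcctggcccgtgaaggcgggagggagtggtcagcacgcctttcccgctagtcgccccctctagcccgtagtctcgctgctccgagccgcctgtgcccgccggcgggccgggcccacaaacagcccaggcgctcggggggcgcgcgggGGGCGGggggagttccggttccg
The Smarcd2 window, before the start listed for the gene that rose, holds 4 CpG dinucleotides, a TATAAA and 2 GC boxes. The Smarcd3 window, upstream of the gene that fell, holds 38 CpG, a CAGCTG E-box and 2 GC boxes that overlap. The Smarcd1 window holds 29 CpG and 1 GC box. The start listed for Smarcd2 lies inside the span of the gene in the same annotation, so other start sites of Smarcd2 may exist that this window does not show.

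Of the accessory BAF subunits 3 fell. Brd9, the bromodomain subunit of the noncanonical BAF complex, read 7.49, 7.53 and 7.46 in Chd7 KD, against 7.73, 7.72 and 7.78 in Control. The groups were apart by more than the spread within either, with a log2 fold change of -0.25 (SE 0.0539, limma adjusted p = 0.0217). Dpf1 (BAF45B), a PHD-finger subunit of neuronal BAF complexes, read 7.38, 7.33 and 7.35 in Chd7 KD, against 7.64, 7.55 and 7.59 in Control. It also fell without overlap, by 0.24 (SE 0.0531, limma adjusted p = 0.0229). Beside it, 2 of 6 neuronal markers were lower, Dcx (-0.71) and Elavl3 (-0.31), and the summed level of the 6 was 9.88 to 10.18 in Chd7 KD and 10.28 to 10.44 in Control. Tubb3 (-0.20), Syt1 (0.20), Snap25 (0.011) and Rbfox3 (0.0012) did not pass, and Elavl3 passed in 1 of the 6 fits without 1 array (limma adjusted p 0.0333 to 0.134). In the paired fit Tubb3 also passed as lower (0.0336) and Syt1 as higher (0.0178). Their part in the change of Dpf1 was not tested. Both Brd9 and Dpf1 missed the threshold without any 1 array other than Control replicate 1, with adjusted p values up to 0.0793 for Brd9 and 0.0923 for Dpf1.

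Arid1a (BAF250A), a large subunit that defines canonical BAF, read 7.06, 7.10 and 7.06 in Chd7 KD, against 7.24, 7.25 and 7.33 in Control. The groups did not overlap, and the log2 fold change was -0.20 (SE 0.0510, limma adjusted p = 0.0414). The dimmer probe of the gene did not move with it (0.021, adjusted p over all probes = 0.776), and the call was lost without any 1 of the 6 arrays (0.0517 to 0.126). Its paralogue Arid1b changed by -0.020 near the blank level, and Arid2, which takes its place in PBAF, by -0.023.

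The other BAF and PBAF subunits did not pass. The actin-like subunits Actl6a (BAF53A, of progenitors) and Actl6b (BAF53B, of neurons) changed by -0.12 and -0.014. The PHD-finger subunits Dpf2, Dpf3 and Phf10, of the same BAF45 family as Dpf1, changed by 0.13, 0.13 and 0.15. Ss18 changed by 0.070, and Pbrm1, the polybromo subunit of PBAF, by -0.14 and -0.15 with its 2 probes. Brd7, a bromodomain subunit of PBAF, read 10.23, 10.35 and 10.20 in Chd7 KD, against 10.38, 10.21 and 9.21 in Control. Only Control replicate 3 was low, and without it the log2 fold change of 0.33 became -0.035.

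**Figure D2:**
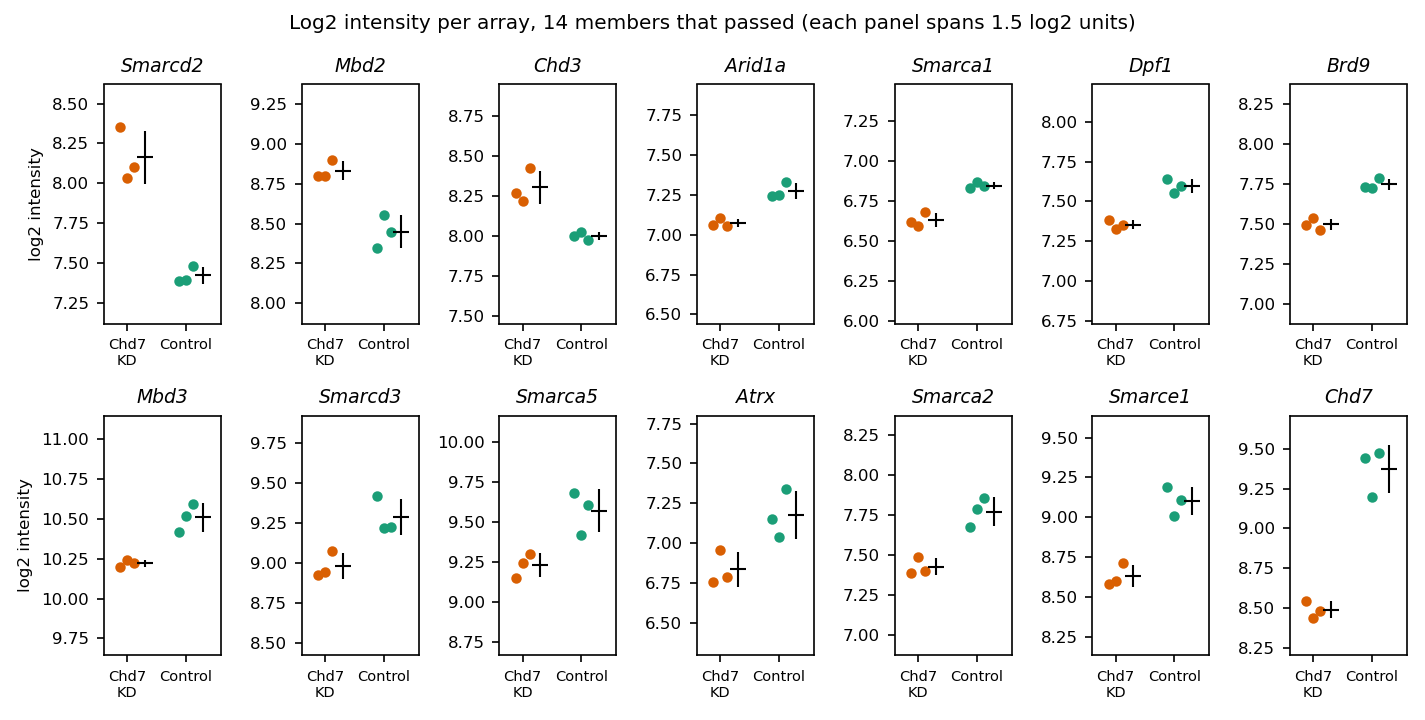
Log2 intensity (vertical axis) of the 14 genes that passed, 1 point an array, with Chd7 KD (orange) left of Control (green). Black crosses give the mean and SD of 3 arrays, and all panels span the same 1.5 log2 units, so that the wide gaps of Chd7 and Smarcd2 can be set against the narrow ones of Arid1a, Smarca1, Dpf1 and Brd9.

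In the ISWI group 2 of 3 genes fell, and the arrays of Chd7 KD lay below those of Control for all 3. Smarca5 (SNF2H), the ATPase of most ISWI complexes in dividing cells, read 9.15, 9.24 and 9.30 in Chd7 KD, against 9.68, 9.42 and 9.61 in Control. The highest Chd7 KD array lay below the lowest Control array, and the log2 fold change was -0.34 (SE 0.0855, limma adjusted p = 0.0392). It was lost without any 1 array other than Control replicate 2 (adjusted p up to 0.133). Smarca1 (SNF2L), the paralogue that is abundant in brain, read 6.62, 6.60 and 6.68 in Chd7 KD, against 6.83, 6.87 and 6.84 in Control. It fell by 0.21 (SE 0.0443, limma adjusted p = 0.0186), and missed the threshold without Chd7 KD replicate 1, Chd7 KD replicate 2 or Control replicate 2 (up to 0.0826). Bptf, the reader subunit that pairs with SMARCA1 in the NURF complex, read 9.23, 9.18 and 9.09 in Chd7 KD, against 9.49, 9.25 and 9.53 in Control. Its change of -0.26 did not pass (limma adjusted p = 0.110).

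None of the 5 genes of the INO80, SRCAP and p400 complexes, which handle the histone variant H2A.Z, passed. Ino80 read 6.02, 6.04 and 6.02 in Chd7 KD, against 6.05, 6.08 and 6.05 in Control, near the blank level. Ep400 read 6.22, 6.19 and 6.17 in Chd7 KD, against 6.32, 6.23 and 6.33 in Control. Both were lower on every Chd7 KD array, by 0.034 and 0.10, with limma adjusted p values of 0.389 and 0.113. Srcap read 7.86, 8.20 and 7.73 in Chd7 KD, against 6.996, 7.99 and 7.63 in Control. These arrays overlapped and spread widely, so that a change of 0.39 came with an SE of 0.220 (limma adjusted p = 0.325), and its other 2 probes gave -0.067 and -0.0023. Ruvbl1 and Ruvbl2, the AAA+ ATPases that these complexes share, changed by -0.041 and -0.067.

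In NuRD, the 2 alternative methyl-CpG-binding-domain subunits moved in opposite directions. Mbd2, which binds methylated DNA, read 8.80, 8.80 and 8.90 in Chd7 KD, against 8.35, 8.55 and 8.45 in Control. It rose without overlap by 0.38 on the log2 scale (SE 0.0743, limma adjusted p = 0.0144), and of the 6 fits without 1 array it missed the threshold in the one without Chd7 KD replicate 3 (0.0551). It also missed it with median scaling (0.0513) and without both arrays numbered 1, 2 or 3 (0.0563, 0.0761 and 0.118). Mbd3, whose domain binds methylated DNA weakly, read 10.20, 10.24 and 10.22 in Chd7 KD, against 10.42, 10.52 and 10.59 in Control. It fell by 0.29 (SE 0.0730, limma adjusted p = 0.0401), again without overlap, and this call was lost without any 1 array other than Control replicate 1 (up to 0.121). The deacetylases Hdac1 and Hdac2 changed by 0.087 and -0.17, the MTA scaffolds Mta1, Mta2 and Mta3 by -0.082, -0.065 and -0.015, and the GATA zinc-finger subunits Gatad2a and Gatad2b by 0.047 and -0.046. These 7 did not pass.

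Atrx, which places the histone variant H3.3 at heterochromatin, read 6.76, 6.96 and 6.79 in Chd7 KD, against 7.15, 7.04 and 7.34 in Control. The groups did not overlap, though Chd7 KD replicate 2 and Control replicate 2 were close, and the log2 fold change was -0.34 (SE 0.0841, limma adjusted p = 0.0363). A second Atrx probe fell too, by 0.25 (adjusted p over all probes = 0.00679). The call of the first probe was lost without Chd7 KD replicate 1, Chd7 KD replicate 3, Control replicate 1 or Control replicate 3 (0.0341 to 0.131 over the 6 fits). With all 6 arrays it was also lost with the authors' values (0.0682), without a variance trend (0.0721), with array weights (0.0571) and with the gain group as a block (0.0662). Hells (LSH), a remodeller needed for DNA methylation and high in dividing cells, read 8.76, 8.75 and 8.86 in Chd7 KD, against 8.82, 8.76 and 8.87 in Control. Its arrays overlapped, and the change was -0.028 (limma adjusted p = 0.846).

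The number of members that passed was lower in each fit without 1 array, as was the number over all genes. Chd7, Smarcd2 and Smarce1, 3 of 14 members (21.4%), passed with all arrays and in each of the 6 fits without 1 array, against 622 of the 1673 genes called over the array (37.2%, or 3.57% of all genes tested). The 14 kept their sign in each of the 6 fits. With all 6 arrays, median scaling ended the calls of Smarcd3 (0.0912), Arid1a (0.0573), Smarca5 (0.0679) and Mbd3 (0.180), beside those of Chd3 and Mbd2 above. The gain group as a block ended those of Smarcd3 (0.0905), Arid1a (0.0718), Smarca5 (0.0711) and Mbd3 (0.0627), beside Chd3 and Atrx. Mbd3 was also lost with the authors' values (0.0733), Smarca5 with array weights (0.0574), Arid1a with cyclic loess (0.0522) and Smarcd3 without the filter on dim probes (0.0505). Scanner settings in the file headers put Chd7 KD replicate 2 with Control replicates 1 and 2, and Chd7 KD replicates 1 and 3 with Control replicate 3, by the slope between gains (0.464 to 0.467 and 0.478 to 0.479). Within the lower and the higher of these gain groups the log2 fold change was -0.88 and -0.96 for Chd7, 0.64 and 0.75 for Smarcd2, and -0.50 and -0.46 for Smarce1. All 14 kept their sign within both, and Atrx moved most, to -0.14 and -0.56. The lower gain group holds 1 Chd7 KD array and the higher 1 Control array, so these are given as values. That no member passed there says little, since the lone array is assumed to vary like the others.

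**Figure D3:**
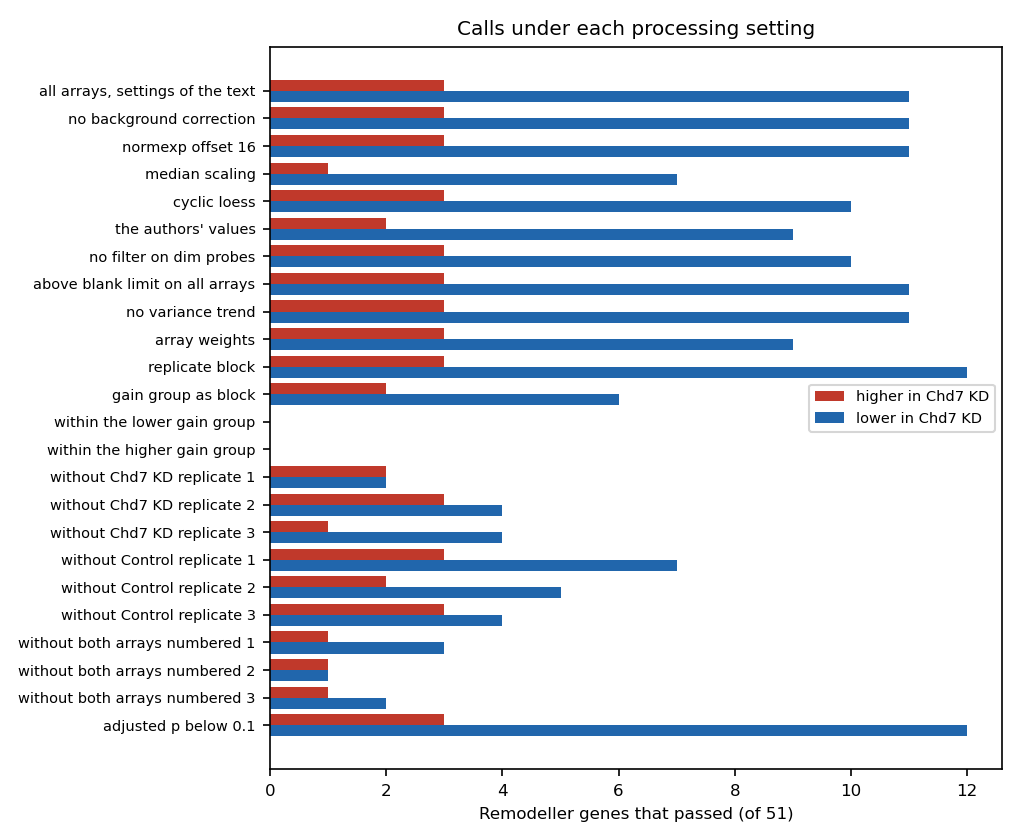
Number of the 51 genes that passed (horizontal axis) under each processing setting (rows), higher in Chd7 KD in red and lower in blue. The count of lower genes is 11 with all arrays and 2 to 7 when 1 array is left out. The counts of 0 within the scanner gain groups come from fits in which 1 arm is a single array.

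Pairs of related genes, not all of them interchangeable subunits, were compared within each array, so that a shift of the whole array cancels. Of 19 pairs, 8 had ratios that did not overlap between Chd7 KD and Control. Among all single genes, 29.8% did not overlap. No such share was computed for pairs of other genes, so whether 8 of 19 is unusual is not known. With 3 arrays a group the exact two-sided permutation test cannot go below 0.1, and after adjustment over the 19 pairs these 8 stood at 0.2375, so no pair passed. Smarcd2 relative to Smarcd1 changed by 0.79 (SE 0.103) on the log2 scale, and Mbd2 relative to Mbd3 by 0.67 (SE 0.0645). As deviations from the Control mean, the Mbd2 over Mbd3 ratio stood at 0.66, 0.62 and 0.74 in Chd7 KD, against -0.012, 0.10 and -0.088 in Control. The Chd3 over Chd4 ratio stood at 0.51, 0.50 and 0.70 in Chd7 KD, against 0.048, 0.10 and -0.15 in Control. In both NuRD pairs the lowest Chd7 KD array was well above the highest Control array. This follows from the single genes and adds no separate evidence. Mbd2 and Chd3 each lay above Control without overlap, and Mbd3 and Chd4 each lay below it.

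The other pairs without overlap were Chd8 over Chd7 (0.81, a pair that holds the targeted gene), Arid1b over Arid1a (0.18), Smarcd3 over Smarcd1 (-0.25), Dpf1 over Dpf2 (-0.37) and Brd9 over Brd7 (-0.58). The size of the last change rests on the low Brd7 value of Control replicate 3. As deviations from the Control mean, its Chd7 KD ratios (-0.55, -0.62 and -0.55) also lay below Control replicates 1 and 2 (-0.46 and -0.30). Ratios of the BAF and ISWI ATPase pairs overlapped, Smarca2 over Smarca4 at -0.13 (SE 0.125) and Smarca1 over Smarca5 at 0.13 (SE 0.0958), as did Hdac2 over Hdac1 at -0.25 (SE 0.140). Overlap of this kind does not show that the paralogues changed alike.

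**Figure D4:**
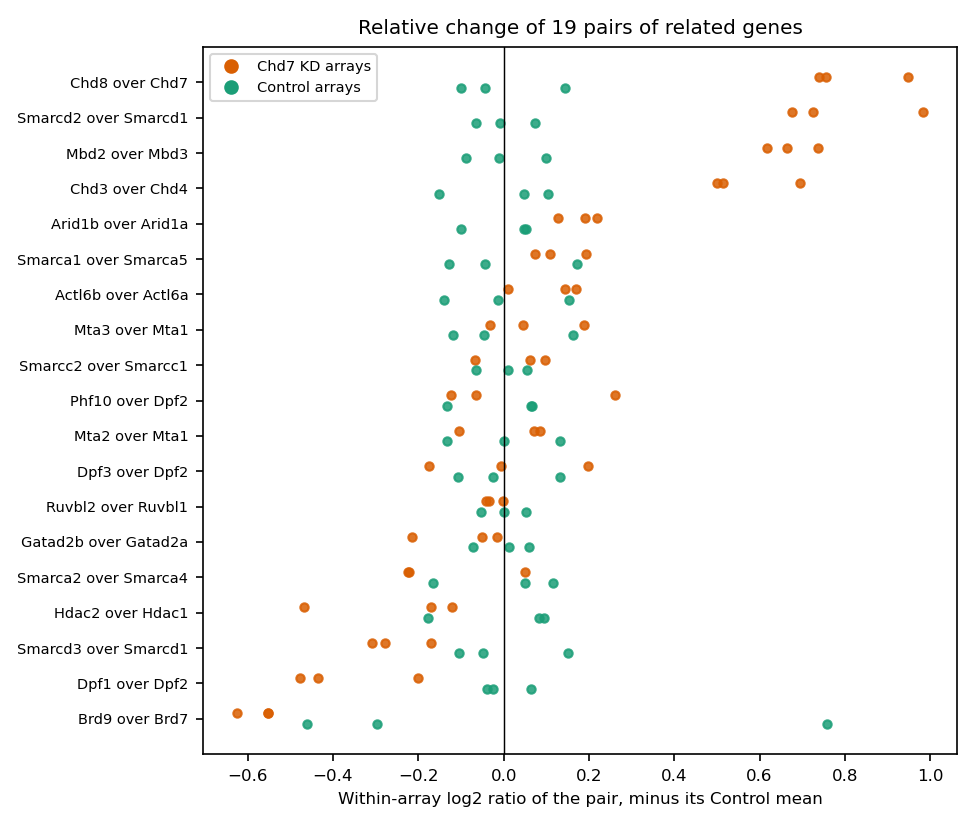
Within-array log2 ratio of each of the 19 pairs, shown as the deviation from its Control mean (horizontal axis), 1 point an array, with Chd7 KD (orange) above Control (green). The Chd7 KD points of Chd8 over Chd7, Smarcd2 over Smarcd1, Mbd2 over Mbd3 and Chd3 over Chd4 lie to the right of all Control points.

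A separate list of 62 genes held further subunits of the same complexes and other SNF2-family ATPases with their partners, together called further subunits here. Of the 59 that could be tested, 45 had negative log2 fold changes. At an adjusted p below 0.05 in limma none rose and 11 fell, which is 18.6% against 9.6% of all genes. Of the 13 SNF2-family ATPases and partners among them, 1 fell (7.69%). By direction, 4.5% of all genes rose and 5.1% fell. At an unadjusted limma p below 0.05, 2 were higher and 25 lower. Over all 17422 genes, 2080 were higher and 2201 lower at that limit. These genes too were brighter than the average gene, with a median mean log2 intensity of 7.46 against 6.55. At a mean of at least 7, 9 of 40 passed, where 15.4% of all genes did. Below 7, 2 of 19 passed, where 5.74% of all genes did. Without 1 array, 1 to 8 of the 59 fell, where 396 to 771 of all genes did. The paired fit called 16 lower, adding Bcl11b, Rsf1, Bcl7b, Mbtd1 and Mrgbp (limma adjusted p 0.0239 to 0.0492). In that fit 7.32% of all genes were lower. Over the 59 genes, the arrays did not overlap for 3 genes above and 27 below. This is 50.8%, against 29.8% of all genes (14.6% above and 15.2% below). The median log2 fold change was -0.10, against 0.0013 over all genes. Of the 14 subunits of SRCAP and TIP60-p400, 6 fell: Znhit1 (-0.35), Brd8 (-0.28), Vps72 (-0.26), Actr6 (-0.28), Kat5 (-0.19), the acetyltransferase of TIP60, and Yeats4 (-0.28). None of these 6 passed in all 6 fits without 1 array: Brd8 passed in 4, Znhit1 and Vps72 in 3, Actr6 in 1, and Kat5 and Yeats4 in 0 (limma adjusted p up to 0.143). With the pairing 8 of the 14 were lower. Vps72 and Znhit1 belong to the part of SRCAP that handles H2A.Z. None of the ATPases of those complexes passed.

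Baz1a, the ACF1 partner of SMARCA5, read 6.77, 6.84 and 6.90 in Chd7 KD, against 7.22, 7.16 and 7.40 in Control. It fell without overlap by 0.42 (limma adjusted p = 0.00750) and passed in each of the 6 fits without 1 array, up to 0.0385. Cdk2ap1, a small NuRD subunit, read 12.05, 12.48 and 12.01 in Chd7 KD, against 12.86, 12.64 and 12.86 in Control. Its change of -0.61 (limma adjusted p = 0.0185) was the only one past 1.5-fold in that list, and it passed in 3 of the 6 fits without 1 array (up to 0.0742). Mcrs1 of INO80 (-0.34), Bcl7a of BAF (-0.23) and Daxx (-0.27), the histone chaperone that works with ATRX, fell as well, with adjusted p values of 0.0207, 0.0211 and 0.0258. Mcrs1 and Bcl7a passed in 2 of the 6 fits without 1 array, and Daxx in 0 (limma adjusted p 0.0538 to 0.0914).

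Promoter windows of 250 bases were found in RefSeq for 41 of the 51 members, 48 windows in all. GGGCGG on either strand was present in 40 of 48 (83.3%), against 32.7% of all 32851 RefSeq windows. Those windows belong to 27025 genes, tested here or not, while every member was tested. The windows of tested genes alone were not compared. It was in 10 of 11 windows of members that fell and in 29 of 36 windows of members that did not pass. The median number of CpG was 21 in member windows and 6 over all. CCAAT stood in 33.3% of member windows against 33.8% of all, TATAAA in 6.25% against 12.4%, and CAGCTG, which reads the same on both strands, in 14.6% against 13%. A match of letters is a description of the window and shows no binding.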

How the data were processed

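RNA was amplified, coupled to Cy5 and hybridised to one-colour arrays, per the labels' protocols, and the scanner combined 3 gains by least squares, per the file headers. The deposited values used are the median spot intensity of each of 27456 spots. The local background, also deposited as an intensity, tracked the signal of its own spot (log correlation 0.957 to 0.981) and was not used. A second deposited table of the authors' linear intensity values served as an alternative after log2(value + 16). How it was made is not stated in those sources.

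Intensities were corrected with normexp (offset 50, all spots), quantile normalized and averaged per probe as log2 values in limma 3.58.1 (R 4.3.3, statmod 1.5.0). The offset understates the changes of dim genes. Probes entered the tests when at least 3 of 6 arrays gave a raw signal more than 2 SD over the blank mean. One symbol was annotated for 20689 probes and none for 2783. The brightest tested probe stood for a gene, and 7 members had several. Groups were compared with lmFit and eBayes (trend) and Benjamini-Hochberg adjustment over 17422 genes, two-sided. Figures were drawn with matplotlib 3.10.9, and the procedure was tested on simulated data.

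The members, the further subunits, the pairs and the marker lists were chosen with earlier results of these data known. Arrays are given for Chd7, members that passed in any of the fits with all arrays, with the block or without 1 array, and the named ATPases. Of the further subunits the rule names those that passed. Smarcd1, Bptf and Brd7 were added after their values were seen. After subtraction of group means, arrays of the same number correlated at 0.368, 0.392 and 0.221, and others at -0.332 to -0.0146. The replicate numbers were therefore taken to pair the arrays, on the data alone, and the blocked fit is reported beside any call that it changes. Other settings tried were uncorrected background, a normexp offset of 16, scaling by the median or by cyclic loess, other filters, no variance trend, array weights, scanner gain, leaving out arrays and an adjusted threshold of 0.1.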

Additional observations from a re-analysis of the deposited data

How the results depend on the processing

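Precision is limited by 3 arrays a group, and by signals near the blank spots for Chd5, Chd9, Smarcc2, Arid1b, Ino80 and Gatad2b. The 14 members that passed kept their direction under every alternative run. Blocking on the replicate number (the paired fit) gave 2551 genes (14.6%), of which 1275 were higher and 1276 lower in Chd7 KD, and 3 members higher and 12 lower, Chd4 being added. No call of a member was lost with the block, and 16 further subunits fell in place of 11. The cause of the changes below was not tested, apart from the fewer arrays in some fits.

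Members higher numbered 1 with median scaling, 0 within each gain group, 1 without both arrays of any 1 number, and 1 to 3 without 1 array. Members lower numbered 7 with median scaling, 6 with the gain group as a block, 0 within each gain group, 3, 1 and 2 without both arrays numbered 1, 2 and 3, and 2 to 7 without 1 array. By probe, 1 was higher with median scaling, 0 and 1 in the lower and the higher gain group, 1 without both arrays of any number, and 1 to 4 without 1 array. Probes lower were 8 with the gain block, 0 and 1 within the gain groups, 4, 3 and 2 without both arrays of a number, and 4 to 8 without 1 array. Further subunits lower were 18 without a variance trend, 18 at an adjusted p of 0.1, 0 in both gain groups, 1, 1 and 2 without both arrays of a number, and 1 to 8 without 1 array.

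Over all genes, 325 rose and 687 fell with the authors' values, so that 32.1% of the calls were higher, against 46.9% in the text. Genes higher were 28 and 10 within the lower and the higher gain group, 378, 105 and 227 without both arrays of a number, 357 to 685 without 1 array, and 1281 at an adjusted p of 0.1. Genes lower were 18 and 29 within the gain groups, 418, 140 and 245 without both arrays of a number, 396 to 771 without 1 array, and 1405 at 0.1. Within the gain groups, where 1 arm is a single array, Chd7 gave -0.8812 and -0.9553, with limma adjusted p values of 0.0967 and 0.0539.

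Signs turned only for members that passed in neither setting. Within the lower gain group the log2 fold change was -0.019 for Chd6, 0.045 for Chd8, -0.074 for Chd1l, -0.052 for Dpf2, -0.025 for Ss18 and 0.049 for Mta3. Within the higher gain group it was -0.00015 for Chd1, 0.034 for Chd5, 0.051 for Smarcc1, -0.0061 for Smarcc2, 0.035 for Arid1b, 0.15 for Actl6b and 0.027 for Mta3. Without both arrays numbered 1 it was 0.016 for Smarcc1, -0.0018 for Smarcc2 and 0.012 for Mta3. Without both numbered 2 it was 0.015 for Chd5, 0.013 for Smarcc1, 0.0016 for Arid1b, 0.058 for Actl6b, 0.0046 for Mta3 and -0.0091 for Gatad2a. Without both numbered 3 it was -0.0078 for Chd6, -0.026 for Chd1l, 0.00096 for Arid2 and -0.0066 for Brd7. Chd5 gave 0.035 with the authors' values, Arid2 0.0049 with array weights, Actl6b 0.00061 with cyclic loess and Mta3 0.038 with the gain block. Without 1 array the range was -0.026 to 0.0080 for Chd5, -0.0034 to 0.041 for Chd6, -0.011 to 0.084 for Chd1l, -0.064 to 0.014 for Smarcc1, -0.067 to 0.0080 for Arid2, -0.063 to 0.083 for Actl6b, -0.035 to 0.55 for Brd7, -0.136 to 0.0013 for Mta2 and -0.073 to 0.062 for Mta3.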
